A study of Mus musculus with 5 samples.

Results

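The Hox genes encode homeodomain transcription factors and lie in 4 clusters, Hoxa to Hoxd, which arose from one ancestral cluster. Genes that descend from the same ancestral gene form a paralog group, and the groups are numbered along the cluster from 1 (anterior) to 13 (posterior). In the reproductive tract of the female mouse, the posterior genes of cluster Hoxa are known for an order along the Müllerian duct: Hoxa9 in the oviduct, Hoxa10 in the uterus, Hoxa11 in the uterus and cervix, and Hoxa13 in the cervix and upper vagina. In the adult, Hoxa10 and Hoxa11 are best known from the endometrial stroma, where they are needed for implantation and decidualization. The rows of the deposited gene count table were taken whose symbol is Hoxa, Hoxb, Hoxc or Hoxd followed by a number alone, so that antisense and read-through rows stayed out. This rule used no measured value and gave 36 of the 28666 rows: 11 of cluster Hoxa, 9 of Hoxb, 8 of Hoxc and 8 of Hoxd. Hoxb13, Hoxc12 and Hoxd13 have no row under this rule and were not analysed here.

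RNA of the uterus was sequenced from 5 pseudopregnant females. The aged-SP group had 2 of them, labelled replicates 1 and 4, and the young-SP group had 3, labelled replicates 1, 2 and 4. Values of single libraries are given in this order throughout. All females were ICR mice aged 6 to 8 weeks without a listed genetic change. They had been caged with sterilized C57BL/6 males that were old (aged-SP) or young (young-SP), whose ejaculate holds seminal plasma (SP) without sperm, and the labels give 3.5 days after caging, whereas the study's methods give 3.0 dpc. Whole uteri were used, so each value is a mixture of endometrium and myometrium, and in such bulk RNA fewer cells of a type and less RNA per cell cannot be told apart. The sample labels number the replicates without saying which cage or male each came from, so p-values measure only the spread between these samples. The libraries held 15071914 to 16728601 counts, of which the 36 Hox genes took 0.109% to 0.118%. On principal components young-SP replicate 1 stood apart from all other libraries, and without it the number of called genes over the whole table was 578 in place of 25.

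The tissue label was checked on marker genes. None of the 9 myometrial and 9 stromal markers was at the floor of 3 or fewer counts in every library, with summed levels of 9426 to 14768 and 10342 to 18900 CPM (counts scaled to the library size after TMM normalization) per library. Of the squamous keratins of vagina and ectocervix, Krt5 lay between 0 and 0.334 CPM and Krt14 between 0.0625 and 0.334 CPM. The 16 listed genes of that tissue summed to 16.67 to 28.2 CPM. Of these 16 genes 2 were at the floor, and 6 had counts high enough for the group test below. The 10 oviduct markers summed to 221 to 415 CPM. The ciliary genes Dynlrb2 and Cdhr3 were at the floor, while 8 of the 10 had counts high enough for the group test below. The 10 ovarian markers summed to 56.8 to 112 CPM, with Zp3 and Nr5a1 at the floor and 3 of the 10 high enough for that test. Endothelial markers summed to 469 to 751 CPM, leukocyte markers to 281 to 396, adipose markers to 3.20 to 6.88 and skeletal muscle markers to 91.5 to 264, the latter mostly Acta1. Gland markers summed to 2952 to 4112 CPM in the aged-SP group and to 50.9 to 531 in the young-SP group, and in the aged-SP group most of this came from the proteases Prss28 and Prss29.

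The steepest steps in level between listed neighbours were those from Hoxa11 to Hoxa13 and from Hoxd11 to Hoxd12, and the promoters of these genes are shown with that of Hoxa10, the highest Hox gene. The windows are RefSeq promoter sequences of build GRCm38.p6, from 250 bases before to 50 bases after an annotated start, written 5′ to 3′ on the strand of the gene with each CpG dinucleotide in capitals. Hoxa10 and Hoxd11 have 2 annotated starts, and for Hoxa10 the start nearer to Hoxa9 is shown.
Hoxa10 (chr6:52234890-52235189, minus strand): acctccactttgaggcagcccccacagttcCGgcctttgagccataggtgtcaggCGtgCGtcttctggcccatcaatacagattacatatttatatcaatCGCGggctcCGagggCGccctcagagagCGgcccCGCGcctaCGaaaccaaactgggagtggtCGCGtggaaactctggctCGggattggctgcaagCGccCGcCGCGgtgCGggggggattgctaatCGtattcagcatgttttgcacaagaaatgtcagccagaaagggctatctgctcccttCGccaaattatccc
Hoxa11 (chr6:52245761-52246060, minus strand): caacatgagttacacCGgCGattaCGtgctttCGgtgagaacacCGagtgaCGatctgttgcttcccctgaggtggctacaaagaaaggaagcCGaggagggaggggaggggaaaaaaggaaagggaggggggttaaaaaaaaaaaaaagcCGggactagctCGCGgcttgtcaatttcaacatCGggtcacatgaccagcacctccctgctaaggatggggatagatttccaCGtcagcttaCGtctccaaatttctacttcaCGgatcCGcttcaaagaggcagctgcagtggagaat
Hoxa13 (chr6:52260831-52261130, minus strand): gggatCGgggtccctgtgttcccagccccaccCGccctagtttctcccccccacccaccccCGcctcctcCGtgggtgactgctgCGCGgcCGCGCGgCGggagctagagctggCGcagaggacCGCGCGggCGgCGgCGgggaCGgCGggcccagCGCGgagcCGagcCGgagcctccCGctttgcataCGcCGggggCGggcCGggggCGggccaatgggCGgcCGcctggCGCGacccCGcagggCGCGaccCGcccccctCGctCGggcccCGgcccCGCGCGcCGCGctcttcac
Hoxd11 (chr2:74679308-74679607, plus strand): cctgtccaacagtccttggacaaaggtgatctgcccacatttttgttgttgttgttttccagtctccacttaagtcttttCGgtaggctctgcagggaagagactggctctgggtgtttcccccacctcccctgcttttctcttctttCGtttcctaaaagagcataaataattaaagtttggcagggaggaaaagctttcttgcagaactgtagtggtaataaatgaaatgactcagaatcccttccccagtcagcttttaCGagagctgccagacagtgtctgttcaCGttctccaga
Hoxd11 (chr2:74682073-74682372, plus strand): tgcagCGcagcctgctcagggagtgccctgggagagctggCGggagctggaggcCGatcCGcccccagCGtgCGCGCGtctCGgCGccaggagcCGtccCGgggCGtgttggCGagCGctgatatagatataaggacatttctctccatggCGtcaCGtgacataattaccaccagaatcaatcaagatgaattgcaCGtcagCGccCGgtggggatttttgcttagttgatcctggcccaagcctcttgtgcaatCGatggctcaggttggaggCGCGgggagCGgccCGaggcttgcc
Hoxd12 (chr2:74674763-74675062, plus strand): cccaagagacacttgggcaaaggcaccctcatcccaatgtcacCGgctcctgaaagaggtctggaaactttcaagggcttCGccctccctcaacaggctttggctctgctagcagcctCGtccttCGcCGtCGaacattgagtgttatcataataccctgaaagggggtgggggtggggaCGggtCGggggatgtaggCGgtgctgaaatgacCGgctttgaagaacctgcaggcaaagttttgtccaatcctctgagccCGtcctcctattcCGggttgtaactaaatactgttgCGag

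The promoter table held 23 windows for 21 of the 36 Hox genes. CpG dinucleotides numbered 4 to 45 per window with a median of 14, against a median of 7 over 32851 windows of all genes. Hoxa13, which was almost without reads, had the highest CpG number of these 23 windows (45), and the Hoxa11 window had 15. The 11 windows of Hox genes over 5 FPKM (counts scaled to gene length in kilobases and to the library total) had a median of 14 CpG, and the 4 windows of Hox genes under 0.5 FPKM had a median of 21. The letters TTTATG, as bound by posterior Hox and Cdx proteins, occurred on either strand in 5 of the 23 windows (Hoxa7, Hoxb8, Hoxd3, Hoxd4 and the first of Hoxd11) and in 11.9% of all windows. TTTACG occurred in 2 of the 23 (Hoxb8 and the first of Hoxd11) and in 3.03% of all windows. The half-site AGAACA of the progesterone receptor occurred in the windows of Hoxa9 and Hoxa11 and in 19.0% of all windows. The half-site GGTCA of the estrogen receptor occurred in 11 of the 23 windows, Hoxa11 among them, and in 40.5% of all windows. These matches describe letters in the windows and were not tested for binding.

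Across the 5 libraries the posterior genes of clusters Hoxa and Hoxd and the middle genes of cluster Hoxb carried nearly all Hox RNA. Levels between genes are compared in FPKM, which accounts for gene length. Cluster Hoxa made up 57.3% ± 3.03 of the summed Hox FPKM, Hoxd 22.0% ± 2.01, Hoxb 19.0% ± 4.44 and Hoxc 1.70% ± 0.352 (mean ± SD, n = 5). By paralog group, group 10 held 43.7% ± 2.33, group 11 18.7% ± 1.81, group 9 11.7% ± 0.658 and group 8 8.21% ± 0.760. Groups 6 and 7 held 7.51% ± 1.71 and 5.38% ± 1.16, group 4 held 2.24% ± 0.287, and groups 1, 2, 3 and 5 together with groups 12 and 13 held the small remainder, with group 13 at 0% to 0.0290%. The 8 highest genes held 86.0% to 87.2% of the sum in every library. The summed Hox level itself was 417 and 394 FPKM in the aged-SP and 401, 419.7 and 424 in the young-SP group, with overlap between both sets of libraries.

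**Figure D1:**
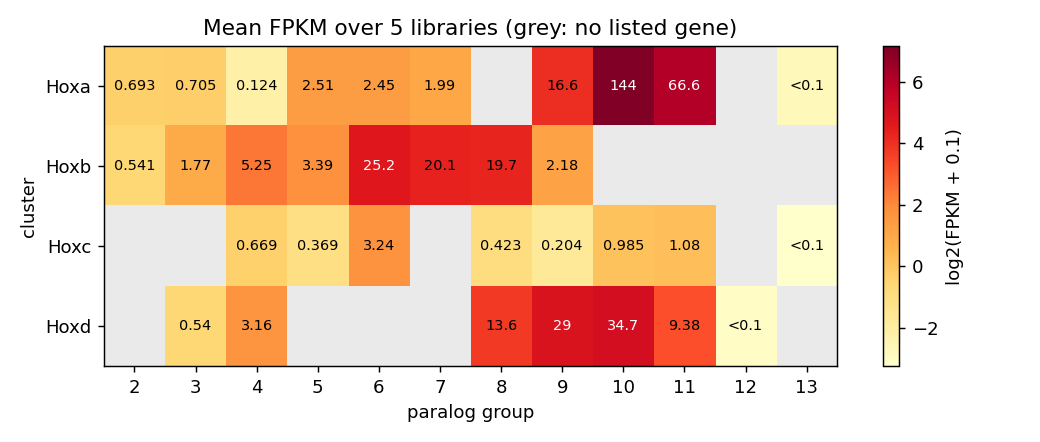
Mean FPKM over the 5 libraries for each Hox gene, with the 4 clusters in rows and paralog groups 2 to 13 in columns; colour gives log2(FPKM + 0.1) and grey marks positions with no listed gene. The highest value is Hoxa10 at 144 FPKM, the Hoxa and Hoxd rows peak at group 10, and the Hoxb row peaks at group 6.

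Hoxa10 had the highest level of all Hox genes (ENSMUSG00000000938, chr6:52231197-52240854, minus strand). Its level was 132 and 144 FPKM in the aged-SP and 138, 148 and 158 in the young-SP group, and its mean over all libraries of 144 FPKM ranked it at 298 among the 28666 rows. It alone made up 31.7% to 37.2% of the summed Hox FPKM. Hoxa11, its neighbour at a gap of 1251 bp, had the next level, at 59.8 and 57.4 FPKM in the aged-SP and 69.5, 73.4 and 73.0 in the young-SP group. In each library Hoxa10 was 1.99 to 2.50 times as high as Hoxa11. Hoxa9, known from the oviduct, lies only 107 bp from Hoxa10 and was measured at 16.8 and 16.3 FPKM in the aged-SP and 16.9, 16.2 and 16.66 in the young-SP group. It varied least of these genes, with an SD of 0.306 FPKM over the 5 libraries, and stood below Hoxa10 by 7.87 to 9.47 times. Hoxa13, the gene of cervix and upper vagina, had 5 and 1 counts in the aged-SP and 2, 2 and 0 in the young-SP group. The genes are 11883 bp apart. Summed over the 5 libraries and per gene length, Hoxa11 was 1319 times as high as Hoxa13 (12202 against 10 counts, 95% exact interval of the ratio 717 to 2751). These intervals cover counting error only. The order in these uteri was thus Hoxa10, Hoxa11, Hoxa9 and Hoxa13, and the ranges of these 4 genes did not overlap.

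Cluster Hoxd, known from limb and external genitalia as well as from the posterior trunk, also peaked at group 10, at a lower level. Hoxd10 was measured at 33.6 and 32.0 FPKM in the aged-SP and 32.5, 40.0 and 35.4 in the young-SP group. Hoxd9 was measured at 27.2 and 28.5 FPKM in the aged-SP and 23.9, 34.7 and 30.7 in the young-SP group. The ranges of Hoxd9 and Hoxd10 overlapped over libraries, although Hoxd10 was the higher in every single library. Hoxd8 was measured at 11.7 and 12.1 FPKM in the aged-SP and 13.1, 15.9 and 15.4 in the young-SP group, below Hoxd9 in every library. Hoxd11 was measured at 9.30 and 6.98 FPKM in the aged-SP and 8.74, 11.4 and 10.5 in the young-SP group. Hoxd11, which acts with Hoxa11 in kidney and limb, was lower than Hoxd10 by 3.38 to 4.58 times. Hoxd12, whose product works in the distal limb and whose gene ends 1851 bp before Hoxd11 begins, had 2 and 0 counts in the aged-SP and 0, 3 and 0 in the young-SP group, all at or below the floor. Summed over the 5 libraries and per gene length, Hoxd11 was 381 times as high as Hoxd12 (3169 against 5 counts, 95% exact interval of the ratio 163 to 1175). Hoxd4 was measured at 3.12 and 3.09 FPKM in the aged-SP and 3.14, 3.30 and 3.17 in the young-SP group, with an SD of 0.0792 FPKM over the 5 libraries. Hoxd3 lay between 0.428 and 0.697 FPKM, and Hoxd1 had 1 count in 1 library.

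Cluster Hoxb was highest in its middle. Hoxb6 was measured at 36.6 and 21.8 FPKM in the aged-SP and 25.8, 20.3 and 21.2 in the young-SP group. Hoxb7 was measured at 26.0 and 21.5 FPKM in the aged-SP and 22.2, 16.2 and 14.4 in the young-SP group. Hoxb8 was measured at 27.0 and 17.9 FPKM in the aged-SP and 21.04, 15.2 and 17.3 in the young-SP group. These 3 genes, which lie side by side and are known from the trunk and from blood progenitors, had ranges that overlapped, although Hoxb6 was above Hoxb8 in every library. The level dropped on both sides: Hoxb9 lay between 1.52 and 3.67 FPKM and was below Hoxb8 by 5.74 to 14.9 times. Hoxb5 was measured at 4.76 and 3.46 FPKM in the aged-SP and 2.85, 3.29 and 2.60 in the young-SP group. Hoxb4, best known from blood stem cells, was measured at 6.80 and 5.62 FPKM in the aged-SP and 5.66, 3.72 and 4.45 in the young-SP group. Hoxb3 lay between 1.48 and 2.28 FPKM and Hoxb2 between 0.342 and 0.783 FPKM. Hoxb1, a hindbrain gene, had 1 count in each aged-SP library and 0 in each young-SP library, which is at the floor in both groups.

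The anterior genes of cluster Hoxa were all low. Hoxa5, known from lung and thorax, was measured at 2.26 and 3.36 FPKM in the aged-SP and 1.59, 2.22 and 3.11 in the young-SP group. Hoxa6 was measured at 3.35 and 3.28 FPKM in the aged-SP and 1.28, 2.003 and 2.35 in the young-SP group. Hoxa7 lay between 1.23 and 2.65 FPKM, Hoxa3 between 0.495 and 0.825 FPKM and Hoxa2 between 0.420 and 1.08 FPKM. Both aged-SP values of Hoxa6 were above the young-SP values. Hoxa4 had 3 and 0 counts in the aged-SP and 7, 4 and 2 in the young-SP group. Between Hoxa7 and Hoxa9, a gap of 1245 bp, the level went up by 6.28 to 13.7 times. All genes of cluster Hoxc were low as well, including its paralogs of Hoxa10 and Hoxa11. Hoxc6 was the highest at 2.98 and 4.87 FPKM in the aged-SP and 2.24, 2.68 and 3.42 in the young-SP group. Hoxc10 was measured at 1.19 and 1.10 FPKM in the aged-SP and 0.520, 0.791 and 1.32 in the young-SP group. Hoxc11 was measured at 1.36 and 1.17 FPKM in the aged-SP and 1.11, 0.956 and 0.788 in the young-SP group. So the 3 members of group 10 differed in mean level from 144 FPKM (Hoxa10) over 34.7 (Hoxd10) to 0.985 (Hoxc10). Hoxc4 was measured at 0.582 and 0.497 FPKM in the aged-SP and 0.701, 0.635 and 0.930 in the young-SP group. Hoxc8 was measured at 0.338 and 0.338 FPKM in the aged-SP and 0.307, 0.640 and 0.492 in the young-SP group. The groups overlapped for Hoxc8 and not for Hoxc4. Hoxc9 had 3 and 13 counts in the aged-SP and 3, 7 and 13 in the young-SP group. Hoxc5 lay between 0.215 and 0.451 FPKM, and Hoxc13, a gene of hair and nail, had 1 count in 1 library.

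**Figure D2:**
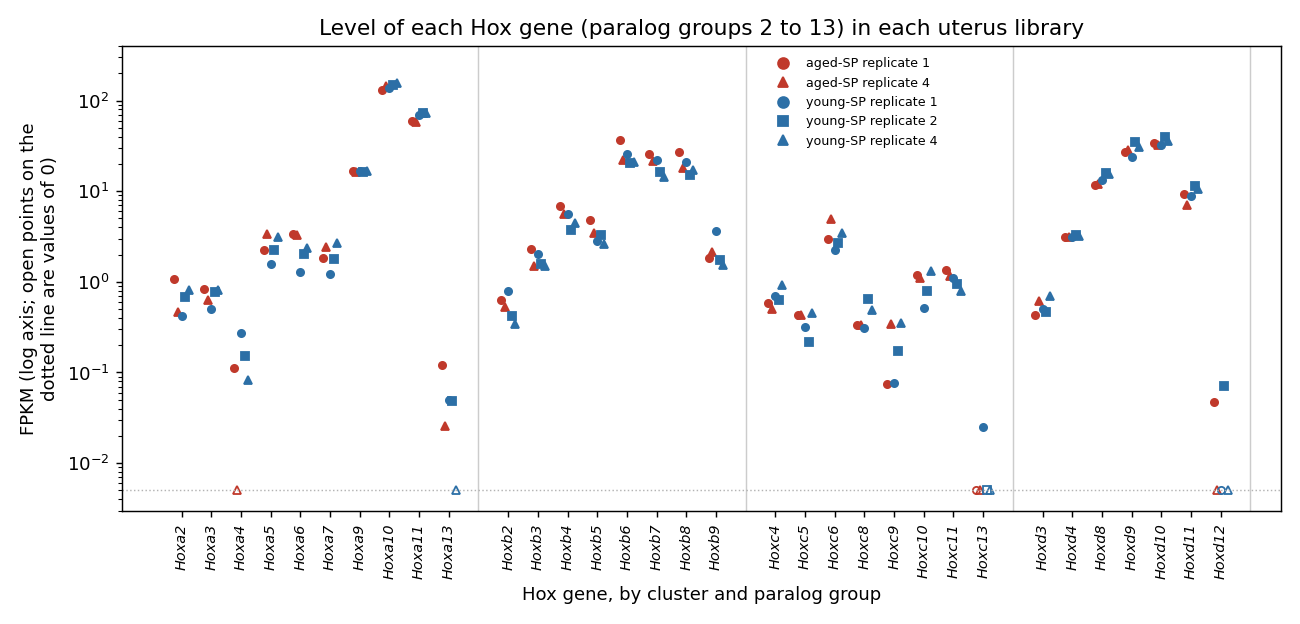
FPKM of each Hox gene of paralog groups 2 to 13 in each library on a log axis, ordered by cluster and paralog group; colours give the group, symbols the replicate, and open points on the dotted line are values of 0. The 5 points of Hoxa10 lie between 132 and 158 FPKM and those of Hoxa13 between 0 and 0.121.

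Whether the uteri of the groups differed in any Hox gene was tested with edgeR's quasi-likelihood test over all genes with Benjamini-Hochberg adjustment, and a call needed an adjusted p below 0.05 together with a log2 fold change beyond 1 in either direction. Counts were high enough for the test in 29 of the 36 Hox genes. The others fell below the filter on low counts, among them Hoxa4, Hoxa13, Hoxb1, Hoxc13, Hoxd1 and Hoxd12, with Hoxc9 just inside it and Hoxa4 just outside. Of the 29 tested Hox genes 0 were called, against 0.147% of all 17013 tested genes (25 genes). With DESeq2, the tool of the study, 0 of the 29 were called as well, against 3.60% of the genes with an adjusted p. At an unadjusted p under 0.05, edgeR gave 3 of 29 (Hoxa6, Hoxa11 and Hoxd8), against 19.0% of all tested genes, and DESeq2 gave 1 (Hoxa11). The values of the groups did not overlap for 7 of 29, against 38.8% of all tested genes: 3 had higher values in the aged-SP group (Hoxa6, Hoxb5 and Hoxc11), against 19.5%, and 4 had lower values (Hoxa11, Hoxc4, Hoxd4 and Hoxd8), against 19.3%. Fitted log2 fold changes of the aged-SP over the young-SP group lay between −0.49 (Hoxc8) and 0.83 (Hoxa6), with 18 of 29 above 0 against 50.9% of all tested genes, and their median was 0.17 beside 0.0072 over all tested genes. Without aged-SP replicate 1 that median was −0.01, without aged-SP replicate 4 it was 0.04 and without young-SP replicate 1 it was 0.06.

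**Figure D3:**
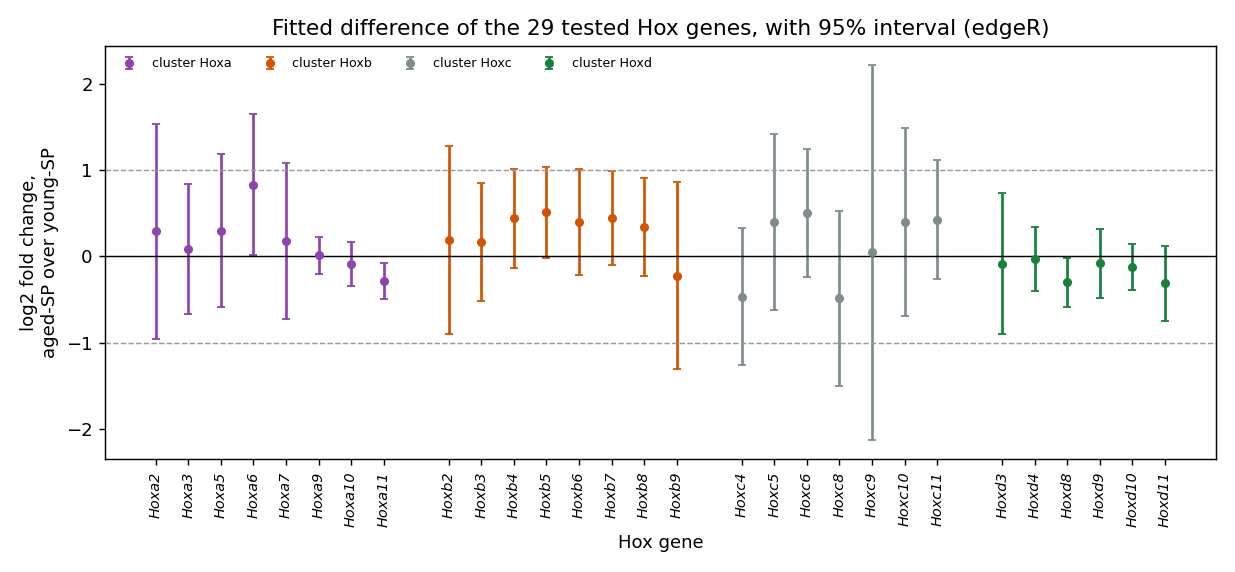
Fitted log2 fold change (aged-SP over young-SP, edgeR) of the 29 tested Hox genes by cluster; points are estimates, bars are 95% intervals and dashed lines mark a change of 1 in either direction. Only the intervals of Hoxa6, Hoxa11 and Hoxd8 leave out 0, before adjustment, and the interval of Hoxc9 is the widest.

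The posterior genes with the highest levels had narrow intervals. Differences are given on the CPM scale. Hoxa10 was measured at 437 and 471 CPM in the aged-SP and 455, 474 and 519 in the young-SP group. The values overlapped, and the log2 fold change was −0.09 (SE 0.10, adjusted p = 0.675), with a 95% interval from −0.34 to 0.17. The interval lies within a change of 1 in either direction, so a 2-fold difference of Hoxa10 would lie outside it. Hoxa9 had a log2 fold change of 0.01 with an interval from −0.20 to 0.23.

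Hoxa11 had the smallest adjusted p of all Hox genes. It was measured at 138 and 132 CPM in the aged-SP and 160.1, 164 and 168 in the young-SP group. Both aged-SP values were below all young-SP values. The log2 fold change was −0.28 (SE 0.08, adjusted p = 0.170), and the 95% interval before adjustment was −0.49 to −0.08. With DESeq2 the log2 fold change was −0.29 with an adjusted p of 0.0841, the smallest of any Hox gene in any setting. With any single library left out the log2 fold change was between −0.32 and −0.25.

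The antisense gene Hoxa11os is transcribed from the opposite strand and shares 35.0% of the exon bases of Hoxa11. It was measured at 7.07 and 6.20 CPM in the aged-SP and 13.1, 11.1 and 12.1 in the young-SP group. All aged-SP values were below all young-SP values, and the log2 fold change was −0.87 (SE 0.17, adjusted p = 0.0997); with DESeq2 the adjusted p was 0.00524, with an absolute change under 1. The libraries were made with a kit that keeps no strand information, so reads in the shared part cannot be assigned to one of these genes, and how the counting handled them is not given in the sources used here. In the same libraries the 9 stromal markers without Hoxa10 and Hoxa11 summed to 10342 and 11660 CPM in the aged-SP group and to 14577, 18811 and 18900 CPM in the young-SP group, with 0 of the 9 at the floor. Without overlap, 4 of the 9 had lower values in the aged-SP group, against 19.3% of all tested genes, and 1 had higher values, against 19.5%. Fitted changes were above 0 in 2 of the 9. Their part in the Hoxa11 difference was not tested.

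Cluster Hoxd had fitted changes below 0 in 6 of 6 tested genes, with a median of −0.10. The direction held for all 6 with DESeq2 size factors and with library size alone, while Hoxd3 was above 0 without aged-SP replicate 1 or young-SP replicate 4, and Hoxd9 was above 0 without young-SP replicate 2 and with a replicate block. Hoxd8 was measured at 32.5 and 33.4 CPM in the aged-SP and 36.3, 42.7 and 42.4 in the young-SP group. The groups did not overlap, and the log2 fold change was −0.30 (SE 0.11, adjusted p = 0.248). Hoxd11 was measured at 39.6 and 29.5 CPM in the aged-SP and 37.1, 46.9 and 44.5 in the young-SP group. Here young-SP replicate 1 lay below aged-SP replicate 1, and the log2 fold change was −0.31 (SE 0.17, adjusted p = 0.393). Hoxd9 had a log2 fold change of −0.08 (SE 0.16, adjusted p = 0.818), Hoxd10 of −0.12 (SE 0.11, adjusted p = 0.586) and Hoxd4 of −0.03 (SE 0.15, adjusted p = 0.935). The values of Hoxd4 did not overlap although they differed little, between 9.15 and 9.52 CPM. The summed level of the cluster was 204 and 194 CPM in the aged-SP and 196, 245 and 229.8 in the young-SP group. Young-SP replicate 1 thus lay with the aged-SP libraries, and the sums overlapped.

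Cluster Hoxb had fitted changes above 0 in 7 of 8 tested genes, Hoxb9 excepted, with a median of 0.37. These counts were the same with DESeq2 size factors and with library size alone. Without aged-SP replicate 1 the count was 5 of 8 and the median 0.03, and without young-SP replicate 1 they were 8 of 8 and 0.50. Hoxb5 was measured at 13.4 and 9.66 CPM in the aged-SP and 8.01, 8.99 and 7.28 in the young-SP group. The groups did not overlap, and the log2 fold change was 0.51 (SE 0.21, adjusted p = 0.276). Hoxb7 was measured at 40.6 and 33.3 CPM in the aged-SP and 34.5, 24.5 and 22.3 in the young-SP group, with a log2 fold change of 0.45 (SE 0.22, adjusted p = 0.339). For Hoxb7 and Hoxb4 young-SP replicate 1 lay above aged-SP replicate 4. Hoxb6 was measured at 72.8 and 43.0 CPM in the aged-SP and 51.1, 39.0 and 41.9 in the young-SP group, with a log2 fold change of 0.40 (SE 0.25, adjusted p = 0.433). Aged-SP replicate 1 was the highest library, and without it the log2 fold change of Hoxb6 was −0.04. Hoxb8 was measured at 72.0 and 47.4 CPM in the aged-SP and 55.9, 39.3 and 45.9 in the young-SP group, with a log2 fold change of 0.35 (SE 0.23, adjusted p = 0.458), and of 0.01 without aged-SP replicate 1. Hoxb4 had a log2 fold change of 0.44 (SE 0.23, adjusted p = 0.366).

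The summed level of cluster Hoxb was 233 and 161 CPM in the aged-SP and 185, 134 and 140.3 in the young-SP group. From the top, aged-SP replicate 1 was followed by young-SP replicate 1 and then by aged-SP replicate 4, while the other young-SP libraries were the lowest. The same 3 libraries were the highest for the 12 genes of the uterine epithelium list, at 5917 CPM in aged-SP replicate 1, 6972 in aged-SP replicate 4 and 7238 in young-SP replicate 1, against 1011 and 1606 CPM in young-SP replicates 2 and 4. Of these sums 30.6 to 5416 CPM came from the secreted products Ltf and Lcn2, and without both genes the sums were 1536, 1557 and 1972 CPM against 981 and 1207 CPM. None of the 12 genes was at the floor, and the part of epithelial RNA in the Hoxb values was not tested.

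**Figure D4:**
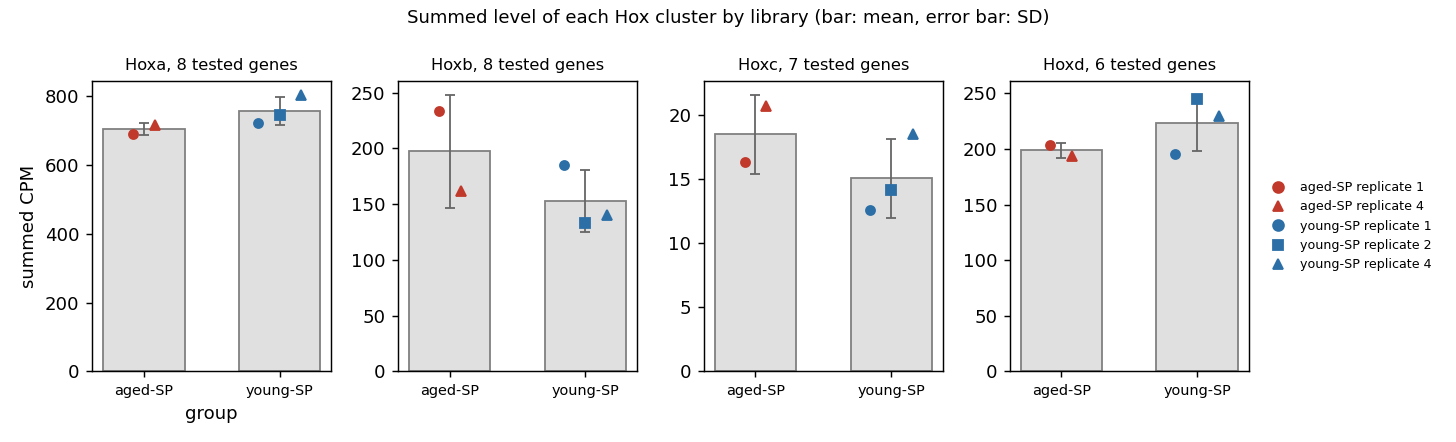
Summed CPM of the tested genes of each Hox cluster in each library; bars are group means, error bars are SD (aged-SP n = 2, young-SP n = 3), points are libraries and each panel has its own axis from 0. In cluster Hoxb aged-SP replicate 1 is the highest at 233 CPM and in cluster Hoxd young-SP replicate 1 (196 CPM) lies next to the aged-SP libraries (194 and 204 CPM).

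In cluster Hoxa 6 of 8 tested genes had fitted changes above 0, and without aged-SP replicate 1 there were 3. Hoxa6 had the largest fitted change of all Hox genes. It was measured at 2.96 and 2.88 CPM in the aged-SP and 1.13, 1.71 and 2.07 in the young-SP group, from 18 to 49 counts per library. Both aged-SP values were above all young-SP values, and the log2 fold change was 0.83 (SE 0.33, adjusted p = 0.259). Hoxa5 had a log2 fold change of 0.30 (SE 0.36, adjusted p = 0.688) and Hoxa7 of 0.18 (SE 0.36, adjusted p = 0.829), and both were below 0 without aged-SP replicate 4. The summed level of cluster Hoxa, which is mostly Hoxa10, was 690.0 and 715 CPM in the aged-SP and 722, 743 and 803 in the young-SP group. All 3 young-SP sums lay above both aged-SP sums. In cluster Hoxc 5 of 7 tested genes had fitted changes above 0. Hoxc6 had a log2 fold change of 0.51 (SE 0.30, adjusted p = 0.411), Hoxc11 of 0.42 (SE 0.28, adjusted p = 0.453), Hoxc10 of 0.40 (SE 0.44, adjusted p = 0.656), Hoxc4 of −0.47 (SE 0.32, adjusted p = 0.470) and Hoxc8 of −0.49 (SE 0.41, adjusted p = 0.557). Their intervals, from 14 to 184 counts per library, all included 0.

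Exons of 16 of the 36 Hox genes overlap those of another annotated gene. Hoxb3 shares 52.9% of its exon bases with the antisense gene Hoxb3os, which had 36 and 13 counts in the aged-SP and 27, 24 and 23 in the young-SP group, and Hoxb2 shares 27.3% with it. Hoxd3 shares 53.1% and Hoxd4 39.2% with the read-through gene Gm28230, at 58 and 35 counts in the aged-SP and 35, 50 and 46 in the young-SP group. The antisense gene Hoxd3os1 overlaps 8.28% of Hoxd3 and 11.8% of Hoxd4, at 96 and 101 counts in the aged-SP and 79, 90 and 77 in the young-SP group. In cluster Hoxa, Hoxaas3 overlaps 20.4% of Hoxa7 at 18 and 21 counts in the aged-SP and 7, 13 and 16 in the young-SP group. Hoxaas2 overlaps 8.36% of Hoxa3 at 34 and 20 counts in the aged-SP and 13, 20 and 12 in the young-SP group. Gm29430 overlaps 16% of Hoxa4 at 0 to 5 counts, and 5730596B20Rik overlaps 4.86% of Hoxa3 at 14 to 29 counts. Gm28309, at 3 to 11 counts, overlaps 10.8% of Hoxd11 and 5.73% of Hoxd10, and Hoxc5 overlaps 8.70% of Hoxc10. Further overlaps are those of Hoxb5os with Hoxb5 (39 to 81 counts) and Haglr with Hoxd3 (12 to 23 counts). Hoxd3 shares 9.26% of its exon bases with Hoxd4, and Hoxd4 shares 13.2% of its own with Hoxd3. Gm28308, which overlaps Hoxa2 and Hoxa3, and Mir196b, which lies in Hoxa9, were not analysed here. The values of these Hox genes are uncertain to the extent that counting could move reads between the partners or leave shared reads out.

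The clusters also hold genes for 2 microRNA families, and their mature sequences are shown because their known targets are Hox genes. RefSeq on GRCm38.p6 places Mir10a near Hoxb4 (chr11:96317186-96317208), Mir10b within the span of Hoxd4 (chr2:74726074-74726096), Mir196a-1 near Hoxb9 (chr11:96265187-96265208), Mir196a-2 between Hoxc10 and Hoxc9 (chr15:102973365-102973386), and Mir196b within Hoxa9 (chr6:52230129-52230150, minus strand). Mature sequences are given 5′ to 3′ with the seed, bases 2 to 8, in capitals.
mmu-miR-10a-5p: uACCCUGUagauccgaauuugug
mmu-miR-10b-5p: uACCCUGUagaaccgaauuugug
mmu-miR-196a-5p: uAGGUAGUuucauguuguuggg
mmu-miR-196b-5p: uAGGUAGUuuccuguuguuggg

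The members of each family share a seed, and mature microRNAs were not measured in these libraries. The 7 bases complementary to the miR-196 seed (ACTACCT) occurred in the longest 3′ UTR that GENCODE M21 annotates for Hoxa4, Hoxa5, Hoxa7, Hoxa9, Hoxb1, Hoxb6, Hoxb7 and Hoxc8. Those of the miR-10 seed (ACAGGGT) occurred in those of Hoxa3, Hoxb3 and Hoxd1. Hoxa7 held 4 miR-196 matches, more than any other Hox gene. The known target Hoxb8 has no perfect seed match, but 21 of the 22 bases of miR-196a pair with its 3′ UTR and the remaining 1 forms a G:U wobble, shown in lower case:
Hoxb8: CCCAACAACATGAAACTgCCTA
In the best stretch of each other Hox gene, by paired and wobble bases together, at most 19 of the 22 bases paired or wobbled (Hoxa10 and Hoxd3). Hoxb8 with this site was at 15.2 to 27.0 FPKM.

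Hox proteins bind DNA together with TALE homeodomain partners of the Pbx, Meis and Pknox families. Of the 9 cofactor genes 0 had an unadjusted p under 0.05 with edgeR, against 19.0% of all tested genes, 0 were called by edgeR or DESeq2, and the median log2 fold change was −0.03. Pbx2 was measured at 64.4 and 70.7 CPM in the aged-SP and 71.5, 68.8 and 72.0 in the young-SP group, and its values overlapped.

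Polycomb complexes keep Hox genes silent through histone methylation and ubiquitination, and trithorax complexes keep them active. Of 18 Polycomb genes 4 had an unadjusted p under 0.05, against 19.0% of all tested genes, all 4 with higher values in the aged-SP group, 0 were called by edgeR, and the median was 0.06. Ezh1, a methyltransferase of resting cells, was measured at 109 and 109 CPM in the aged-SP and 70.1, 69.0 and 73.6 in the young-SP group, and its log2 fold change was 0.63 (SE 0.08, adjusted p = 0.0719). Cbx7, a reader of the Polycomb mark, was measured at 29.8 and 30.9 CPM in the aged-SP and 14.6, 15.4 and 18.4 in the young-SP group, and its log2 fold change was 0.91 (SE 0.14, adjusted p = 0.0760). The aged-SP values of both genes were above the young-SP values, and the adjusted p by DESeq2 was 7.78e-06 for Ezh1 and 0.00016 for Cbx7, with changes under 1. Phc2 had a log2 fold change of 0.40 (SE 0.09, adjusted p = 0.119) and Ring1 of 0.34 (SE 0.13, adjusted p = 0.258). By DESeq2 the adjusted p was 0.0220 for Phc2, with a change under 1, and 0.304 for Ring1. The members with the highest FPKM were Cbx6, at 187 to 237 CPM, and Bmi1, at 90.7 to 106 CPM, and both overlapped.

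Of 13 trithorax genes, demethylases and boundary factors 4 passed an unadjusted p of 0.05, against 19.0% of all tested genes. In 3 of these the aged-SP values were the higher and in 1 the lower, 0 were called by edgeR, and the median was 0.05. The methyltransferase Kmt2a, a direct activator of Hox genes, was measured at 179.8 and 154 CPM in the aged-SP and 119, 127 and 137 in the young-SP group, with a log2 fold change of 0.39 (SE 0.11, adjusted p = 0.170). Kmt2d had a log2 fold change of 0.31 (SE 0.10, adjusted p = 0.193), Yy1 of 0.23 (SE 0.08, adjusted p = 0.211), and the demethylase Kdm6a of −0.21 (SE 0.08, adjusted p = 0.252). Dpy30 lay between 36.7 and 44.9 CPM, and Ctcf, which codes for a boundary protein, between 98.9 and 109 CPM, both with overlap between the groups. None of these genes passed the adjusted threshold.

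Steroid hormone and retinoid receptors act upstream of Hox genes in the uterus. Of 8 tested receptors 2 had an unadjusted p under 0.05, against 19.0% of all tested genes, both with higher values in the aged-SP group, and the median was 0.17. The estrogen receptor gene Esr1 was measured at 419 and 395 CPM in the aged-SP and 310.5, 343 and 353 in the young-SP group, with a log2 fold change of 0.28 (SE 0.10, adjusted p = 0.229). The progesterone receptor gene Pgr, under which Hoxa10 is known to be induced, was measured at 200.04 and 204 CPM in the aged-SP and 288, 248 and 222 in the young-SP group, with a log2 fold change of −0.32 (SE 0.13, adjusted p = 0.270). The groups overlapped for neither receptor. Vdr, the vitamin D receptor gene, was measured at 17.6 and 14.4 CPM in the aged-SP and 5.32, 4.49 and 9.01 in the young-SP group. It had a log2 fold change of 1.35 (SE 0.33, edgeR adjusted p = 0.131). It was called by DESeq2 (adjusted p = 0.00808) and not by edgeR.

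Of 9 genes linked to Hoxa10 or Hoxa11 in the literature, such as Emx2, 2 had an unadjusted p under 0.05, against 19.0% of all tested genes, 0 were called by edgeR, and the median was 0.28. Wnt5a, a stromal ligand, was measured at 108 and 123 CPM in the aged-SP and 173, 177 and 222 in the young-SP group, with a log2 fold change of −0.72 (SE 0.15, adjusted p = 0.105); by DESeq2 the adjusted p was 0.00192. Wnt4, needed for decidualization, was measured at 9.79 and 27.8 CPM in the aged-SP and 10.5, 5.14 and 4.21 in the young-SP group, with a log2 fold change of 1.502 (SE 0.57, adjusted p = 0.245). Only in Wnt5a did the groups not overlap. Emx2, known to be repressed by Hoxa10, was measured at 72.3 and 90.2 CPM in the aged-SP and 80.5, 56.9 and 59.9 in the young-SP group. Ptger3 was measured at 105 and 136 CPM in the aged-SP and 102, 117 and 160.1 in the young-SP group. Both overlapped between the groups. Of the 22 genes from the chromosomal surroundings of the clusters and their paralogs elsewhere 6 passed an unadjusted p of 0.05, against 19.0% of all tested genes. In the aged-SP group 2 of them were higher and 4 lower, 0 were called by edgeR, and the median was 0.0020. Of the ParaHox and Evx genes, close relatives of the Hox genes, Evx2 was listed with 1 count in 1 library.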

How the data were processed

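Uterine RNA was sequenced in 5 libraries, 2 of the aged-SP and 3 of the young-SP group, grouped by the sample labels. A further young-SP library, removed by the authors as an outlier, was not analysed here. The authors filtered and aligned the reads with HISAT2 (version 2.1.0 in the submitters' processing notes, which also name HTSeq 0.6.0 and Bowtie2 2.2.3 without a role) and deposited the unnormalized read count of each gene. The deposited FPKM values follow from the counts, the gene lengths and the library totals, which was checked on the values. The count table also holds the authors' own DESeq2 comparison (fold changes and p-values), which was not used. The setting for strand is not given in the sources used here. All 36 Hox rows have the GENCODE M21 position on GRCm38.

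Counts were fitted with edgeR 4.0.16 in R 4.3.3 (filterByExpr, TMM, glmQLFit and glmQLFTest, two-sided, with Benjamini-Hochberg adjustment), after a check on simulated data, with DESeq2 1.42.0 and limma 3.58.1 as alternatives. CPM values use TMM library sizes. The common dispersion was 0.0629, with 2.55 prior degrees of freedom. The floor is 3 counts per library and covers counting error only. Tables and figures were made with Python 3.11.15, pandas 2.3.3 and matplotlib 3.10.9. Total counts were 15071914 to 16728601 per library. No 2 libraries agreed within sampling noise (chi-square per degree of freedom 17.0 to 82.3 over the 10 pairs).

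The members, gene lists and tests were chosen with earlier results of these data known. Values in every sample are given for paralog groups 9 to 13 of clusters Hoxa and Hoxd, the 5 highest genes of each cluster, genes with an unadjusted p under 0.05 and those nearest to the filter. From lists of cofactors, Polycomb and trithorax genes, receptors and linked genes, those with an unadjusted p under 0.05 and the 2 highest in FPKM are named. A few single-gene results are not reported here.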

Additional observations from a re-analysis of the deposited data

How the results depend on the processing

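No Hox gene was called under any of the 14 alternatives, and the smallest adjusted p was 0.0841 (Hoxa11, DESeq2). Of the 29 tested genes 17 kept the sign of their log2 fold change under all of them. The number of all called genes, 25 with edgeR, was 632 with DESeq2, 203 without the low-count filter and 2 with a replicate block, and 1 (without aged-SP replicate 1) to 578 (without young-SP replicate 1) with 1 library left out; leaving out aged-SP replicate 4 gave 49, young-SP replicate 2 gave 3 and young-SP replicate 4 gave 2. Hox genes with an unadjusted p under 0.05 numbered 3, 1 with DESeq2, 0 with the replicate block and 0 (without young-SP replicate 2) to 4 without 1 library. The median Hox log2 fold change, 0.17, was −0.014 to 0.17 without 1 library. With a replicate block the log2 fold change was −0.017 for Hoxa9, −0.057 for Hoxc9 and 0.040 for Hoxd9, and with limma-voom it was −0.059 for Hoxc9. With 1 library left out it was −0.44 to 0.77 for Hoxa2, −0.14 to 0.28 for Hoxa3, −0.0073 to 0.57 for Hoxa5, −0.067 to 0.50 for Hoxa7, −0.019 to 0.040 for Hoxa9, −0.032 to 0.63 for Hoxb2, −0.18 to 0.45 for Hoxb3, −0.036 to 0.73 for Hoxb6, −0.46 to 0.27 for Hoxb9, −1.38 to 0.76 for Hoxc9, −0.35 to 0.14 for Hoxd3 and −0.22 to 0.027 for Hoxd9. The cause was not tested. In the fits without an aged-SP library the remaining one is assumed to vary like the others. Replicate numbers shared by the groups gave correlations of 0.152 and 0.136 over 2 pairs. Pairs with unlike numbers gave −0.152, −0.136, −0.0757 and 0.0757. With 2 aged-SP libraries their deviations from the group mean mirror each other, so these correlations cannot decide whether the numbers mark pairs. The labels name no pairing, and the main fit treated the replicate numbers as numbers only. By CPM in place of FPKM, the share of cluster Hoxa was 64.7% and that of Hoxd 18.8%. The Hoxc genes other than Hoxc6 had 0 to 46 counts per library.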
